A study of Mus musculus with 20 samples.

Results

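Serpina7, Ttr, Slc16a10, Dio1, Thra, Thrb and Thrsp were followed across 20 liver libraries as genes of thyroid hormone carriage, uptake, activation, sensing and response. They are 7 of the 22298 genes listed in each library, and all 7 passed the filter on low counts, after which 12342 genes were tested. Serpina7 was chosen by its measured level, which fell more with PPARγ knockdown in vehicle-treated mice than that of any other gene that was past an adjusted p of 0.05, showed no overlap between the groups and had a mean count of at least 50. The other members were taken for their roles in thyroid hormone action, with earlier results of these data known.

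The study measured polyadenylated RNA by bulk sequencing in the liver of male Lepr db/db mice, an obese and diabetic strain without functional leptin receptors. An AAV8 vector was injected into the tail vein of each mouse at 5 weeks of age. The Vec group (n = 5) carried a non-targeting shRNA and was gavaged with the vehicle, and the Vec+BBR group (n = 5) carried the same vector and was given benzbromarone (BBR), a urate-lowering drug, at 25 mg per kg once daily for 4 weeks. The shRNA group (n = 5) carried a vector with 4 shRNAs against Pparg and was gavaged with the vehicle, and the shRNA+BBR group (n = 5) carried that vector and was given the same BBR course. All mice were therefore obese, all carried an AAV8 vector, and all were fasted for 6 h before collection. The promoter that drives the shRNAs is not given in the sources used here, and the knockdown was partial. The libraries are labelled as biological replicates, and the labels do not name litters or batches.

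Thyroid hormone circulates mostly as thyroxine (T4) bound to plasma proteins that hepatocytes secrete, among them thyroxine-binding globulin, transthyretin and albumin. It enters cells through membrane transporters, is converted by deiodinases to the active form T3, and T3 binds nuclear receptors that pair with retinoid X receptors (RXR) on DNA. The liver is both the main source of the carriers and a classical target of T3, which acts there mainly through the receptor encoded by Thrb on genes of lipid, bile acid and glucose metabolism.

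In these livers Serpina7 showed the widest range of the members, from 4.29 to 113.8 CPM (counts scaled to the library size), and was highest in Vec+BBR livers. Each Vec+BBR liver was above each Vec liver, and under BBR the gene was lower with knockdown than without it. Slc16a10 fell with BBR in Vec mice. Dio1 was higher in each of the 5 Vec+BBR livers than in any Vec or shRNA+BBR liver, but did not pass the test across all genes. Ttr, Thra, Thrb and Thrsp passed the test in none of the comparisons, with edgeR adjusted p-values of 0.0556 or more.

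Depth ran from 17432904 to 25024099 counts per library (median 21409859.5), and 14266 to 15072 genes were detected. The lowest count of any member in any library was 103, for Serpina7, which lay far above the floor of 3 counts, a level of 0.121 to 0.193 CPM. Mitochondrial transcripts took 9.14% to 10.8% of counts in Vec and 10.2% to 16.2% in shRNA+BBR libraries, and their part in the results below was not tested. The hepatocyte marker Alb lay at 75123 CPM or more in every library, whereas the thyroid gland marker Tshr was at 0 in all 20 libraries and Tg reached at most 2 counts. Of the 6 thyroid gland markers read, Pax8 alone passed the filter on low counts, with at most 20 counts in a library. In bulk tissue, fewer cells of a type and less RNA per cell cannot be told apart.

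The knockdown target was checked first. Pparg, which encodes the nuclear receptor PPARγ, lay at 16.4, 20.1, 35.9, 19.4 and 32.1 CPM in Vec livers 1 to 5 and at 7.31, 6.53, 5.96, 3.24 and 5.63 CPM in shRNA livers. With BBR it lay at 34.8, 29.8, 28.0, 28.1 and 38.3 CPM in Vec+BBR and at 11.4, 9.99, 21.8, 18.9 and 7.19 CPM in shRNA+BBR livers. Both pairs of groups were separate, and the gap was narrower with BBR (log2 fold change −1.20, SE 0.26) than with vehicle (−2.12, SE 0.28), although the difference between the 2 did not pass the test (edgeR adjusted p = 0.208). Pparg rose with BBR in shRNA mice (log2 fold change 1.28, SE 0.28, edgeR adjusted p = 0.00773). In Vec mice its change with BBR did not pass (0.36, SE 0.26, edgeR adjusted p = 0.372). The 4 target sequences, shown because they define what was silenced, are the 21 bases before each hairpin loop.
shRNA1: gcatctccaccttattattct
shRNA2: ggatgtctcacaatgccatca
shRNA3: ggaaagacaacggacaaatca
shRNA4: ggaagccctttggtgacttta
Each target was found whole in 3 to 6 of the 7 annotated Pparg transcripts. None was found in the 34 annotated transcripts of the 7 members, where the longest shared run was 9 bases.

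The members lie on 7 chromosomes (GRCm38, GENCODE M21). Serpina7 (ENSMUSG00000031271) is on chromosome X from 139079257 to 139085236 on the minus strand, Ttr (ENSMUSG00000061808) on 18 from 20665280 to 20674321 on the plus strand, and Slc16a10 (ENSMUSG00000019838) on 10 from 40033532 to 40142258 on the minus strand. Dio1 (ENSMUSG00000034785) is on 4 from 107291465 to 107307169 on the minus strand and Thrsp (ENSMUSG00000035686) on 7 from 97412938 to 97417730 on the minus strand. Of the receptors, Thra (ENSMUSG00000058756) is on 11 from 98740638 to 98769006 and Thrb (ENSMUSG00000021779) on 14 from 17660261 to 18038090, both on the plus strand. Thra shares 263 exonic bases with the opposite-strand clock gene Nr1d1, and no other member shares exonic bases with another gene.

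The sequences before the start sites of the 3 members with the largest differences are shown because they are the stretches on which transcription factors of hepatocytes act (RefSeq, GRCm38.p6, 250 bases before the start, minus strand, 5′ to 3′, at chrX:139085237-139085486, chr10:40142255-40142504 and chr4:107307169-107307418). Capitals mark GTTAAT, a core of the site bound by the hepatocyte factor HNF1.
Serpina7: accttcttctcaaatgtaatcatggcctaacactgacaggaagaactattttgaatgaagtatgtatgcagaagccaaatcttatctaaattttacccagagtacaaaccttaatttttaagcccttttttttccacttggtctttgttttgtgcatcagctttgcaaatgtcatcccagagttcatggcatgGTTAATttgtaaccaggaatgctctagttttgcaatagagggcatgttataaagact
Slc16a10: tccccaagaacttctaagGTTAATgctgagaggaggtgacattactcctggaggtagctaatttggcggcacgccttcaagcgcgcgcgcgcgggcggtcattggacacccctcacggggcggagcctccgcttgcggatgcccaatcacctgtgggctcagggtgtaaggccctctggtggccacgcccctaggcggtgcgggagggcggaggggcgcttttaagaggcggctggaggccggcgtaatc
Dio1: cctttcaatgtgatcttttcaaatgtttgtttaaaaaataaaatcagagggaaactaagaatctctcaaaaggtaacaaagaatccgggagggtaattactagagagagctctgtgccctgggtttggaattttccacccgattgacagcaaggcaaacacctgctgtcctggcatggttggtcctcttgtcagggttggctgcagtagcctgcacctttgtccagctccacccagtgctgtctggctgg
On either strand GTTAAT was found 57 bases before the start of Serpina7 and 232 bases before that of Slc16a10, and not in the Dio1 window. It occurs in 6.43% of 32851 promoter windows of this length. The nuclear receptor half-site AGGTCA, present in 14% of windows, and its direct repeats spaced by 1 base (AGGTCANAGGTCA, 0.0335%) and by 4 bases (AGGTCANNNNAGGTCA, 0.0152%), which both contain the half-site, were not found in these 3 windows. These are matches of letters and not measured binding.

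Levels of different genes can be compared only per transcript length, for which the authors' FPKM values were used. Over the 20 libraries the median FPKM was 4035 for Ttr, 1227 for Thrsp, 34.02 for Dio1, 13.1 for Serpina7, 11.1 for Slc16a10, 3.71 for Thra and 2.76 for Thrb. The transthyretin transcript was thus the most abundant of the 7 per length, and those of the 2 receptors the least. The length behind the FPKM values varied between libraries for Serpina7 (1473 to 2093 bases), Thra (2146 to 2434) and Thrb (3405 to 5664), so that comparisons between libraries were made on CPM.

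**Figure D1:**
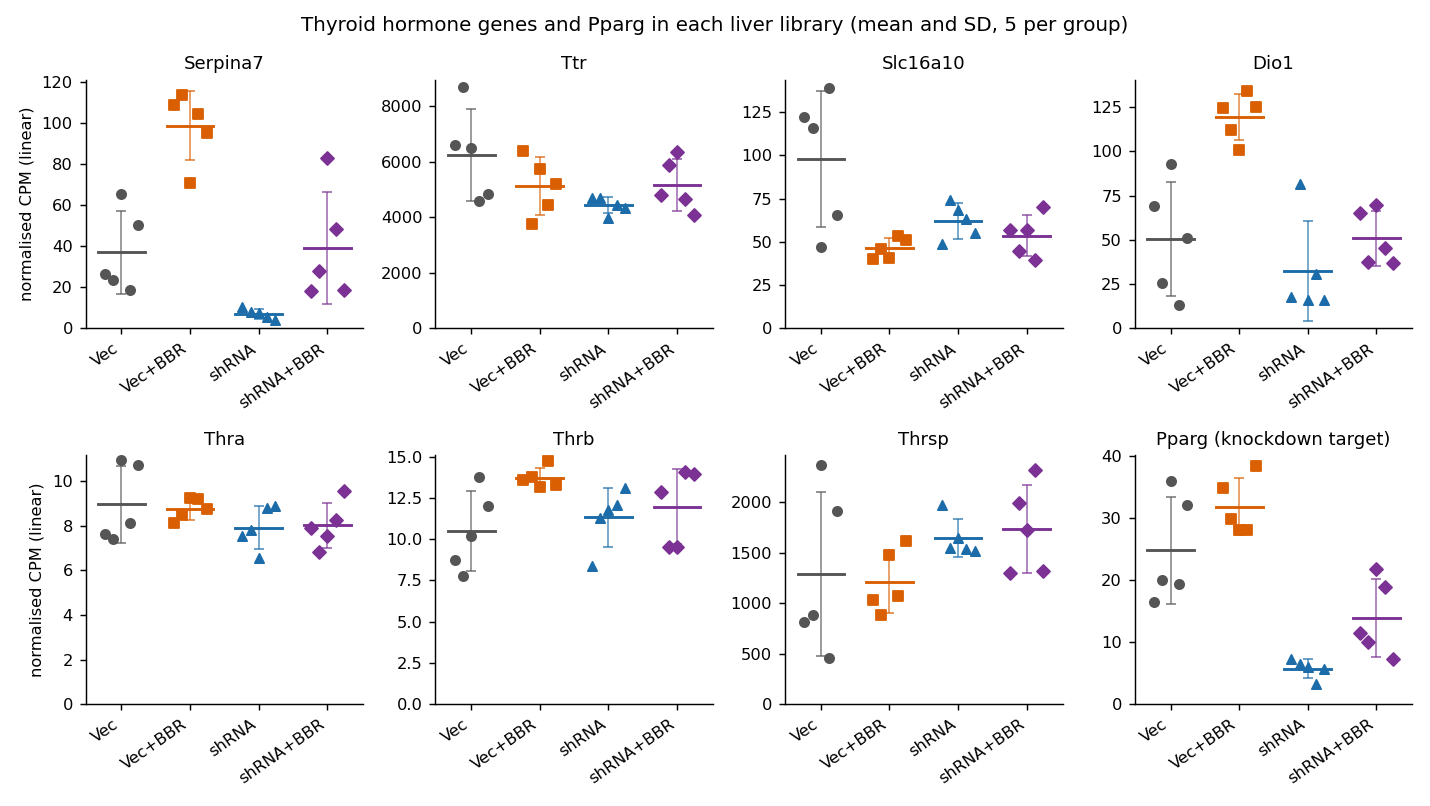
Normalised CPM (linear axes from 0) of the 7 members and of Pparg in each of the 20 libraries, with points for libraries in replicate order and lines and bars for the group mean and SD (n = 5). Serpina7 separates shRNA livers (4.29 to 10.4 CPM) from Vec livers (19.0 to 65.6 CPM), which its choice required. Dio1 separates Vec+BBR livers (100.6 to 133.9 CPM) from Vec and shRNA+BBR livers.

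Serpina7 encodes thyroxine-binding globulin, a serpin that does not inhibit proteases and carries T4 in plasma. In Vec livers 1 to 5 it lay at 26.7, 23.5, 65.6, 19.0 and 50.5 CPM, and in Vec+BBR livers at 109.1, 113.8, 71.2, 104.7 and 95.4 CPM. In shRNA livers it lay at 10.4, 7.98, 7.33, 5.70 and 4.29 CPM, and in shRNA+BBR livers at 18.0, 27.8, 83.3, 48.4 and 18.8 CPM. The Vec+BBR libraries were all above the Vec libraries and the shRNA libraries all below them, whereas the shRNA+BBR libraries overlapped the Vec libraries, with replicate 3 above all of them and replicates 1 and 5 below all of them. By group means the order was Vec+BBR (98.8 ± 16.9 CPM), shRNA+BBR (39.3 ± 27.5), Vec (37.1 ± 20.1) and shRNA (7.13 ± 2.31; SD, n = 5 each), and only the last neighbours, Vec and shRNA, did not overlap. That separation was a criterion of the choice of the gene.

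The mean of Serpina7 in Vec+BBR livers was 2.67 times that in Vec livers (log2 fold change 1.41, SE 0.38). No test is given, because the Vec libraries had entered the choice of the gene. Of the 6 other members, Slc16a10 was called in this comparison, in which 15.5% of the genes tested were called. Dio1 was without overlap between the groups, as were 8.94% of all genes. With knockdown none of the 6 was called, either under vehicle, where none was without overlap (8.96% of all genes), or under BBR, where Dio1 was (8.48%). With BBR in shRNA mice none of the 6 was called (15.7% of all genes) or without overlap (11.4%).

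In vehicle-treated mice the shRNA mean of Serpina7 was 0.193 of the Vec mean (log2 fold change −2.38, SE 0.41), and no test is given because this difference chose the gene. Among the 853 genes that met the selection criteria it stood at rank 1, followed by Pparg itself (−2.12), Depp1 (−2.06) and Pdia4 (−1.91). Without the criteria on overlap and mean count it stood at rank 7 of the 1628 genes called, which were 13.2% of those tested.

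Under BBR, in groups whose levels the choice had not used, Serpina7 differed between the knockdown and control vectors by a log2 fold change of −1.33 (SE 0.38, edgeR adjusted p = 0.0314), with a mean of 0.397 of that in Vec+BBR livers. The spread in this test was estimated over all 4 groups, so the Vec and shRNA libraries that chose the gene entered it. 4 of the 5 shRNA+BBR libraries were below all Vec+BBR libraries, and replicate 3 (83.3 CPM) was not. It stood at rank 26 of the 1004 genes called, which were 8.13% of those tested. The call was lost when any 1 of Vec+BBR replicates 1, 2, 4 or 5 or of shRNA+BBR replicates 1, 2 or 5 was left out, with edgeR adjusted p-values between 0.0509 and 0.0912 and log2 fold changes between −1.15 and −1.35.

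Between the 2 groups of knockdown mice, BBR went with a 5.52-fold higher level (log2 fold change 2.46, SE 0.41), given without a test because the shRNA libraries had chosen the gene. The difference between the 2 BBR effects was 1.05 on the log2 scale (SE 0.54) and is likewise given without a test.

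Serpina7 followed Pparg from library to library. Over the 20 libraries the log2 CPM of the pair had a Pearson correlation of 0.921, and of 0.812 after the group means were removed, with libraries sharing their scaling and the choice of Serpina7 by the knockdown. The same library was highest for both genes in Vec (replicate 3), shRNA (replicate 1) and shRNA+BBR (replicate 3), and the second highest was the same in all 4 groups. In Vec+BBR the highest library differed (replicate 2 for Serpina7 and 5 for Pparg). The lowest library was the same in Vec+BBR alone (replicate 3) and differed in Vec, shRNA and shRNA+BBR. Pparg stood at position 31 of 12341 genes by this correlation. The genes most like Serpina7 were Ermp1 (0.958), an endoplasmic reticulum metallopeptidase gene, Themis (0.953), known for its role in thymocytes, and Scp2 (0.949), which encodes sterol carrier protein 2.

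**Figure D2:**
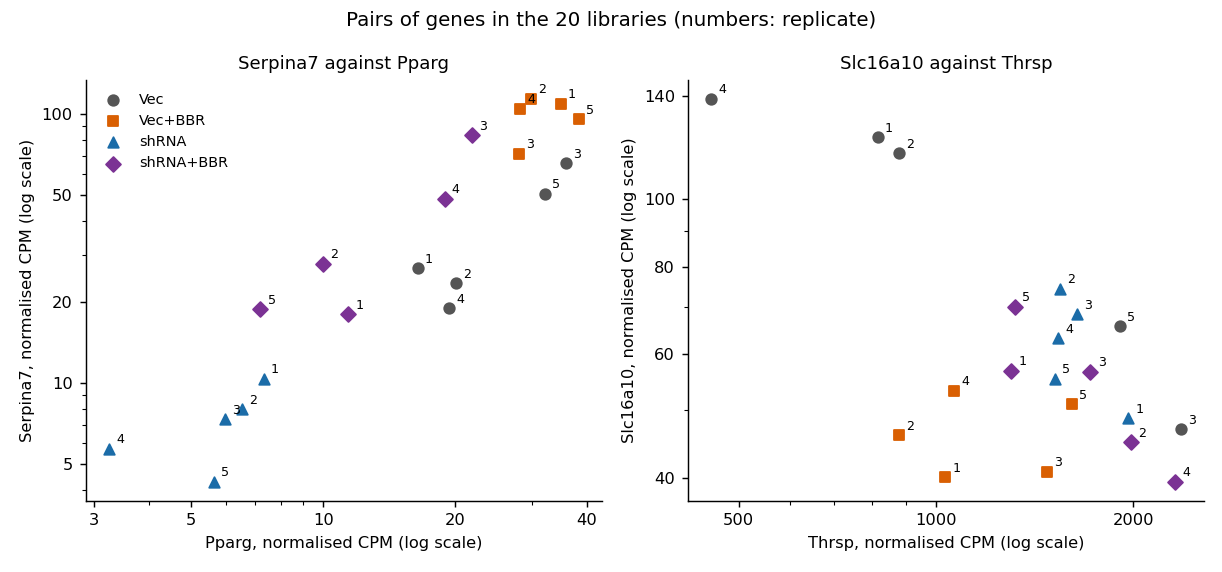
Normalised CPM (log scales on both axes) of Serpina7 against Pparg, left, and of Slc16a10 against Thrsp, right, in the 20 libraries, with symbols for groups and numbers for replicates. Serpina7 and Pparg rise together (r = 0.921), with shRNA livers at the lower left and Vec+BBR livers at the upper right, and the 3 Vec livers with the lowest Thrsp have the highest Slc16a10 (116.0 to 138.7 CPM).

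Ttr encodes transthyretin, which carries T4 and, with retinol-binding protein, retinol. It lay at 6582, 8701, 6505, 4582 and 4825 CPM in Vec, at 6397, 3743, 5747, 4457 and 5207 CPM in Vec+BBR, at 4698, 4678, 3990, 4453 and 4339 CPM in shRNA, and at 4790, 5897, 6350, 4672 and 4077 CPM in shRNA+BBR livers. The ranges of all 4 groups overlapped, and the shRNA libraries were the closest together (SD 289.8 CPM, against 936.3 to 1658 CPM in the other groups). With knockdown under vehicle its log2 fold change was −0.49 (SE 0.17), which did not pass the test in edgeR (adjusted p = 0.0556) and passed it in DESeq2 (0.0288), and in edgeR without Vec replicate 4 (0.0197) or 5 (0.0342) or Vec+BBR replicate 1 (0.0497) or 2 (0.0476). Under BBR the same difference was 0.01 (SE 0.17).

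The remaining thyroid hormone carriers of the plasma and cytosol did not pass the test in any comparison. Alb, which encodes albumin, averaged 109728 CPM in Vec and 91169 CPM in Vec+BBR livers (log2 fold change −0.27, SE 0.11, edgeR adjusted p = 0.114), and Crym, a cytosolic T3-binding protein gene, lay at 4.03 to 6.30 CPM on average. Of 3 carriers of other small ligands, 2 fell with BBR in Vec mice. Serpina6, the serpin that binds glucocorticoids, had a log2 fold change of −0.71 (SE 0.17, edgeR adjusted p = 0.00943), and Rbp4, the plasma retinol carrier that travels with transthyretin, one of −0.52 (SE 0.12, adjusted p = 0.0074). Gc, which carries vitamin D, did not pass (−0.16, SE 0.10). These directions were opposite to that of Serpina7.

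Slc16a10 encodes a monocarboxylate transporter family protein for aromatic amino acids and thyroid hormones. It lay at 122.3, 116.0, 46.9, 138.7 and 65.7 CPM in Vec livers 1 to 5 and at 40.1, 46.0, 40.8, 53.3 and 50.9 CPM in Vec+BBR livers. In shRNA livers it lay at 48.6, 74.4, 68.4, 63.2 and 55.3 CPM and in shRNA+BBR livers at 56.9, 45.0, 56.6, 39.5 and 70.1 CPM. Vec replicates 1, 2 and 4 stood above all other 17 libraries, whereas Vec replicates 3 and 5 lay within the range of the other groups.

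With BBR in Vec mice Slc16a10 fell by a log2 fold change of −1.08 (SE 0.22, edgeR adjusted p = 0.00292), and the call was kept in each of the 26 alternative settings (adjusted p between 4.6e-05 and 0.021). With knockdown under vehicle the log2 fold change was −0.66 (SE 0.22, edgeR adjusted p = 0.0530), and 5 of the 26 settings passed the threshold, namely DESeq2 (0.0265), at least 10 counts in every library (0.0478), and leaving out Vec replicate 3 (0.00539), Vec replicate 5 (0.0275) or shRNA+BBR replicate 5 (0.0495). The remaining log2 fold changes were 0.21 (SE 0.22) for knockdown under BBR and −0.21 (SE 0.22) for BBR in shRNA mice. The difference of the BBR effect between vectors was 0.87 (SE 0.31), which did not pass the test across all genes (edgeR adjusted p = 0.160), where 0.146% of genes were called.

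The gene most like Slc16a10 in its levels was Brap (Pearson r = 0.920 over 20 libraries), followed by Tcp11l2 (0.918) and Lifr (0.901), the receptor gene of leukemia inhibitory factor.

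Dio1 encodes the type 1 deiodinase, a selenoenzyme that makes T3 from T4 and is itself raised by T3. It lay at 68.8, 25.8, 92.7, 13.3 and 51.3 CPM in Vec and at 124.7, 112.0, 100.6, 133.9 and 124.8 CPM in Vec+BBR livers. In shRNA livers it lay at 17.8, 81.7, 16.1, 30.8 and 16.3 CPM and in shRNA+BBR livers at 64.9, 37.5, 69.8, 45.6 and 36.7 CPM. The Vec+BBR libraries were above all others of the 20, Vec libraries spread over 13.3 to 92.7 CPM, and shRNA replicate 2 stood apart from the other 4 shRNA libraries.

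The log2 fold change of Dio1 with BBR in Vec mice was 1.24 (SE 0.44, edgeR adjusted p = 0.0594), and that with knockdown under BBR was −1.23 (SE 0.44, edgeR adjusted p = 0.0848). Both groups of each comparison were separate, as for 8.94% and 8.48% of genes. The smaller differences were −0.64 (SE 0.44) for knockdown under vehicle and 0.65 (SE 0.44) for BBR in shRNA mice. Without shRNA replicate 2 all 4 passed the test, with log2 fold changes of 1.24 (edgeR adjusted p = 0.0221), −1.23 (0.0358), −1.32 (0.0311) and 1.33 (0.0340) in the same order. The difference with BBR in Vec mice also passed without Vec replicate 3 (1.57, edgeR adjusted p = 0.0191), and that with knockdown under BBR passed without Vec replicate 4 (0.0471) and in a fit to those 2 groups alone (0.0024). The SE in that fit was 0.18, against 0.44 with the spread estimated over all 4 groups. The difference between the BBR effects in the 2 vectors was −0.59 (SE 0.62) with shRNA replicate 2 and 0.09 without it. The genes most like Dio1 were Tdrp (Pearson r = 0.864), Sod3 (0.861), which encodes an extracellular superoxide dismutase, and Lrat (0.859), the retinol esterifying enzyme of stellate cells.

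**Figure D3:**
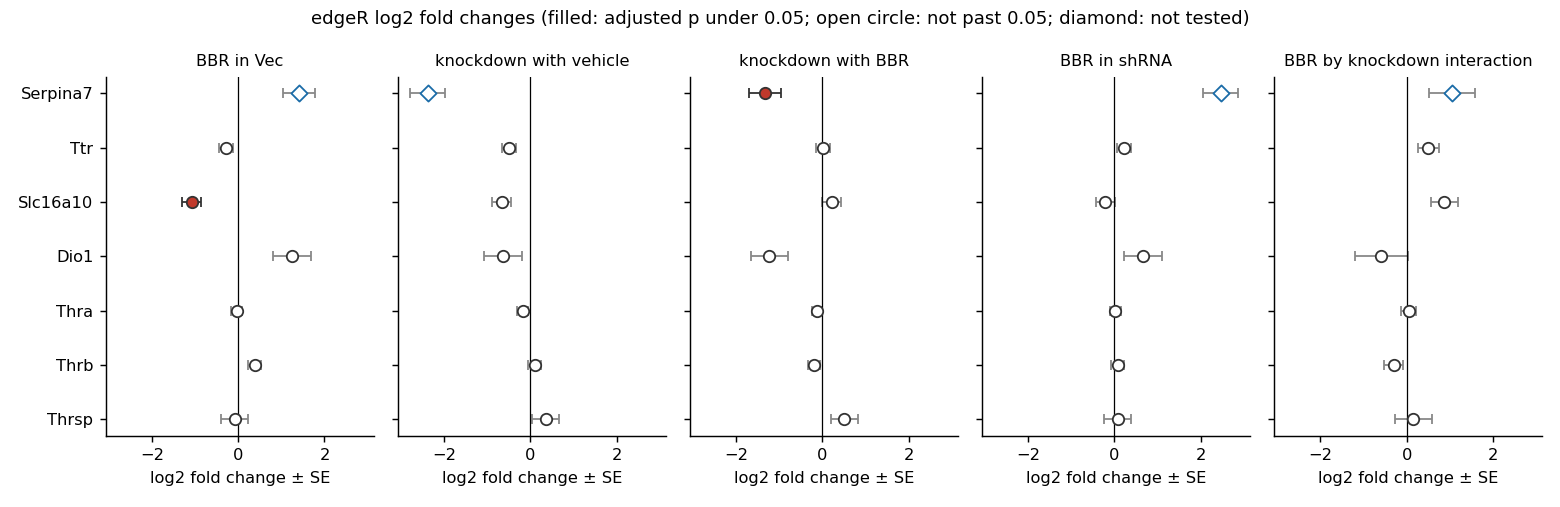
Log2 fold changes of the 7 members with their standard errors (x axis) in the 5 comparisons, from one edgeR fit to 20 libraries, with filled circles where the adjusted p was under 0.05 and diamonds where the gene's own choice leaves no test. Only Serpina7 with knockdown under BBR (−1.33) and Slc16a10 with BBR in Vec mice (−1.08) carry filled circles, and Thra stays within 0.18 of 0 on the log2 scale in each comparison.

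Neither receptor gene passed the test in any comparison. Thra, which encodes the receptor TRα and a splice form that does not bind T3, lay at 7.62, 7.39, 10.9, 8.11 and 10.7 CPM in Vec, at 8.12, 8.47, 9.23, 9.20 and 8.76 CPM in Vec+BBR, at 7.54, 7.81, 6.56, 8.81 and 8.88 CPM in shRNA, and at 7.90, 6.84, 7.53, 8.26 and 9.59 CPM in shRNA+BBR livers. All groups overlapped, and its log2 fold changes lay between −0.18 and 0.02 (SE 0.12, edgeR adjusted p of 0.353 or more). Nr1d1, whose exons overlap those of Thra on the other strand, fell with knockdown by a log2 fold change of −1.07 under vehicle (SE 0.31, edgeR adjusted p = 0.0254) and −1.67 under BBR (SE 0.31, adjusted p = 0.00322). The library kit did not mark strand, so reads from the shared bases cannot be told apart.

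Thrb encodes TRβ, the main receptor of hepatocytes. It lay at 8.72, 7.78, 10.2, 13.7 and 12.01 CPM in Vec, at 13.6, 13.8, 13.2, 14.7 and 13.3 CPM in Vec+BBR, at 8.36, 11.3, 11.8, 12.1 and 13.1 CPM in shRNA, and at 12.8, 9.53, 9.52, 14.1 and 13.9 CPM in shRNA+BBR livers. The Vec+BBR libraries were close together (SD 0.618 CPM) at the upper end of the range of the Vec libraries (SD 2.42 CPM). The log2 fold change with BBR in Vec mice was 0.38 (SE 0.15, edgeR adjusted p = 0.0861), which passed the threshold when Vec replicate 4, the highest Vec library, was left out (0.50, edgeR adjusted p = 0.0319) or the replicate number was a block (0.41, adjusted p = 0.0394), and the other 3 lay between −0.20 and 0.11.

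Per transcript length, Thra was above Thrb in 18 of the 20 libraries. The median ratio of Thrb to Thra in FPKM was 0.577 in Vec, 0.754 in Vec+BBR, 0.686 in shRNA and 0.725 in shRNA+BBR livers. In none of the 4 comparisons did the ratio pass an exact two-sided permutation test (adjusted p between 0.365 and 0.873 over the 4 comparisons, where the smallest p the design allows is 0.00794). Without Vec replicate 4 the log2 ratio differed by 0.61 with BBR in Vec mice and by 0.56 with knockdown under vehicle, and both then passed (exact permutation test, adjusted p = 0.0317 for each). Because the length behind Thrb in the FPKM values varied between libraries, the ratio carries the error of that estimate. The level of Thra in it includes the form that does not bind T3, and its reads from the bases shared with Nr1d1 are uncertain. The genes most like Thrb and Thra in level were Lrrk2 (Pearson r = 0.808) and Aatk (0.719), lower values than for the other members.

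Thrsp, also called Spot 14, encodes a nuclear protein of lipogenic tissues that is induced by T3 and by carbohydrate feeding. It lay at 815.0, 879.8, 2367, 454.3 and 1911 CPM in Vec livers 1 to 5 and at 1033, 878.7, 1479, 1067 and 1612 CPM in Vec+BBR livers. In shRNA livers it lay at 1968, 1545, 1640, 1539 and 1519 CPM and in shRNA+BBR livers at 1303, 1987, 1722, 2319 and 1322 CPM. The Vec group held both the lowest and the highest of the 20 libraries, and all groups overlapped. Its log2 fold changes were −0.08 (SE 0.31) with BBR in Vec mice, 0.35 (SE 0.31) with knockdown under vehicle, 0.51 (SE 0.31) with knockdown under BBR and 0.08 (SE 0.31) with BBR in shRNA mice, none past the threshold (edgeR adjusted p of 0.323 or more).

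The spread of Thrsp within the Vec group went with that of lipogenic genes. The summed level of 10 genes of lipogenesis, among them the paralog Mid1ip1, Fasn, Acaca, Scd1 and Srebf1, was 33375 CPM in Vec replicate 3 and 18930 CPM in replicate 5, against 1655 to 5746 CPM in replicates 1, 2 and 4. Scd1, which encodes a stearoyl-CoA desaturase, took the larger share of that sum except in replicate 4, and without it the 5 livers kept their order (948.3 to 4713 CPM). In the Vec+BBR livers the sum was 28193 to 35589 CPM, and without Scd1 it was 2264 to 3679 CPM, inside the range of the Vec livers, while Thrsp averaged 1214 ± 314 CPM there and 1285 ± 812 CPM in Vec livers (SD, n = 5). Of the 10 genes, Srebf1 alone passed the test with BBR in Vec mice, where it fell (log2 fold change −0.57, edgeR adjusted p = 0.044). With BBR in shRNA mice Srebf1 (−0.75, adjusted p = 0.0154) and Mlxipl (−0.36, adjusted p = 0.041) fell, and none of the 10 passed in either knockdown comparison. Mid1ip1 had log2 fold changes between −0.16 and 0.21.

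Vec replicates 3 and 5 thus had the highest Serpina7, Pparg, Thra and Thrsp and the lowest Slc16a10 of the Vec livers. They also had the most genes with a count in the group (15057 and 14949, against 14327 to 14506). Over the 20 libraries together, Thrsp and Slc16a10 ran in opposite directions, with a Pearson correlation of −0.658, and −0.841 after group means were removed. Ttr and Thrb did so with −0.645 and −0.751. For Thrsp and Slc16a10 this did not hold in each group. In Vec+BBR replicates 1 to 5, Thrsp lay at 1033, 878.7, 1479, 1067 and 1612 CPM and Slc16a10 at 40.1, 46.0, 40.8, 53.3 and 50.9 CPM. Serpina7 and Dio1 had the highest correlation of the pairs of members, at 0.769, and 0.467 after group means were removed. After that removal Serpina7 with Thrsp (0.619, from −0.0522) and Thra with Thrb (0.515, from 0.415) stood higher. All these values share libraries and scaling and are descriptions. Thrsp was most like Lrrc28 (0.841), Ptgr1 (0.831) and Samm50 (0.827), and Ttr was most like Vkorc1 (0.934), Psmb4 (0.910) and Naprt (0.905).

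The wider pathway was read from lists of 52 genes, of which 45 are not members and 42 of those were tested. With BBR in Vec mice 10 of the 42 passed the test (23.8%, against 15.5% of all genes), 1 higher and 9 lower (7.58% and 7.88% of all genes), and the median log2 fold change was −0.06, close to that of all genes (−0.01). With BBR in shRNA mice 3 were higher and 7 lower (23.8%, against 15.7% of all genes, 8.37% higher and 7.28% lower). With knockdown 2 were higher and 2 lower under vehicle (9.52%, against 13.2% of all genes, 5.28% higher and 7.91% lower). Under BBR 3 were higher and 0 lower (7.14%, against 8.13%, 3.31% higher and 4.82% lower), while 3046 of all genes had an unadjusted p under 0.05 in edgeR. None of the 42 passed for the difference of the BBR effect between vectors (0.0729% of all genes in each direction), where 2281 of the 12342 genes tested had an unadjusted p under 0.05 in edgeR and DESeq2 called 338 genes.

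**Figure D4:**
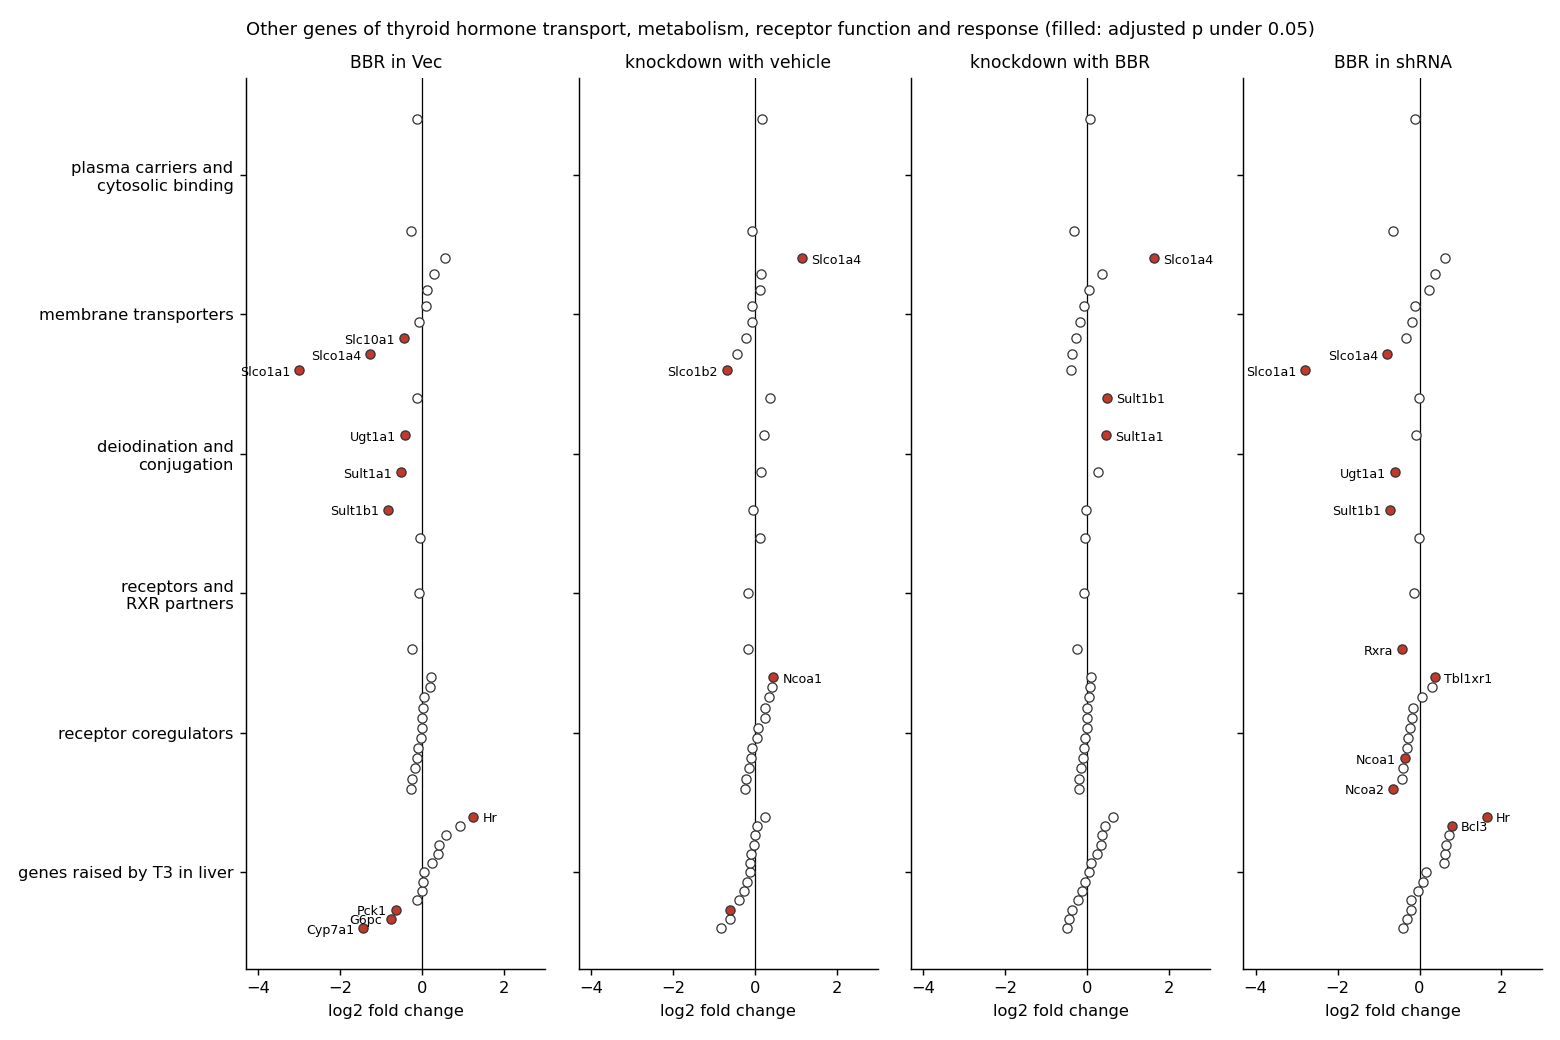
Log2 fold changes (x axis) of the 42 tested pathway genes that are not members, in rows by role and in panels by comparison, from the edgeR fit to 20 libraries. Filled circles, named where the text gives the gene, mark an adjusted p under 0.05, and with BBR in Vec mice 9 of the 10 filled circles lie below 0.

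Among the other membrane transporters, Slco1a4, an organic anion transporter that takes up T4 and bile acids, changed in each of the 4 comparisons. It averaged 55.6 ± 22.2 CPM in Vec, 23.0 ± 8.46 in Vec+BBR, 123.1 ± 26.7 in shRNA and 71.2 ± 16.5 in shRNA+BBR (mean ± SD, 5 livers each). It fell with BBR by 1.27 in Vec and by 0.79 in shRNA mice and rose with knockdown by 1.15 under vehicle and 1.63 under BBR, all as log2 fold changes (edgeR adjusted p = 0.00283, 0.0407, 0.00542 and 0.00112), the opposite direction to Serpina7 in each. Slco1a1, a related transporter, fell with BBR by 3.01 in Vec and by 2.79 in shRNA mice (edgeR adjusted p = 0.0378 and 0.0437), from means of 2.15 and 2.41 CPM. Its level in shRNA livers ran from 0.0833 to 9.14 CPM (SD 3.80), so that mean leaned on the highest liver. With BBR several libraries were at or under the floor of 3 counts, so that its fold depends on the prior count. Slc10a1, the main bile acid uptake transporter, fell with BBR in Vec mice (log2 fold change −0.45, edgeR adjusted p = 0.0184), and Slco1b2 fell with knockdown under vehicle (−0.68, adjusted p = 0.00696).

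Of the 4 tested enzymes of deiodination and conjugation other than Dio1, the sulfotransferases Sult1b1 and Sult1a1 and the glucuronosyltransferase Ugt1a1, which prepare thyroid hormones for excretion, fell with BBR in Vec mice. Their log2 fold changes were −0.85, −0.53 and −0.41 (edgeR adjusted p = 0.000762, 0.00759 and 0.0382). In shRNA mice Sult1b1 (−0.73, adjusted p = 0.00463) and Ugt1a1 (−0.59, adjusted p = 0.00852) fell, whereas Sult1a1 had −0.02 (SE 0.12). Under BBR, Sult1b1 and Sult1a1 were higher with knockdown (0.49 and 0.46, adjusted p = 0.0350 and 0.0272). Dio3, which inactivates the hormone, was too low to be tested, and Dio2 was not analysed here. Because the Ugt1a genes share their last exons, how reads were divided between them is uncertain.

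Of the RXR partners and coregulators, Rxra fell with BBR in shRNA mice (log2 fold change −0.43, edgeR adjusted p = 0.0441), and no partner passed elsewhere. Of 12 coregulators, Ncoa1 rose with knockdown under vehicle (0.46, adjusted p = 0.00577). With BBR in shRNA mice Ncoa1 (−0.36, adjusted p = 0.0239) and Ncoa2 (−0.64, adjusted p = 0.0208) fell and Tbl1xr1 rose (0.39, adjusted p = 0.0280).

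Genes that T3 is known to raise in liver moved in both directions. Of 15 such genes, Dio1 and Thrsp included, 1 was higher and 3 were lower with BBR in Vec mice (7.58% and 7.88% of all genes), at a median log2 fold change of 0.05. Hr, a corepressor gene, went from 1.36 ± 1.14 to 3.27 ± 0.811 CPM (SD, n = 5), a rise of 1.25 in log2 units (edgeR adjusted p = 0.0225). Cyp7a1, the rate-limiting enzyme of bile acid synthesis, fell by 1.44 (adjusted p = 0.0321), and the gluconeogenic genes G6pc and Pck1 fell by 0.77 and 0.65 (adjusted p = 0.0234 and 0.0145). With BBR in shRNA mice Hr (1.65, adjusted p = 0.0107) and Bcl3 (0.80, adjusted p = 0.00445) rose and 0 of the 15 fell (8.37% and 7.28% of all genes). With knockdown under vehicle 0 of the 15 were higher and 1 was lower (5.28% and 7.91% of all genes). None of the 15 passed with knockdown under BBR, where 8.13% of all genes were called.

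Some markers of other cell types and of lobule zones differed with BBR in Vec mice or with knockdown under vehicle. The summed level of 8 stellate cell markers was 152.2 to 282.1 CPM in Vec and 302.0 to 337.4 CPM in Vec+BBR livers, with 3 of 8 higher by edgeR (7.58% of all genes). With knockdown under vehicle 1 of these 8 was lower (7.91% of all genes). That of 6 endothelial markers was 72.5 to 95.7 CPM in Vec, 91.6 to 126.5 CPM in Vec+BBR and 106.3 to 138.1 CPM in shRNA livers, with 3 of 6 higher with BBR in Vec mice and another 3, Stab2, Kdr and Clec4g, higher with knockdown under vehicle (5.28% of all genes). The summed level of 7 markers of pericentral hepatocytes was 9430 to 18008 CPM in Vec, 6320 to 8655 CPM in Vec+BBR and 6378 to 8716 CPM in shRNA livers, with 5 of 7 lower with BBR in Vec mice (7.88% of all genes) and 3 of 7 lower with knockdown under vehicle (7.91%). That of 6 periportal markers was 6661 to 12397 CPM in Vec, 6141 to 6595 CPM in Vec+BBR and 8780 to 11481 CPM in shRNA livers. Pck1, Sds and Ass1 were lower and Hsd17b13 higher with BBR in Vec mice (7.88% and 7.58% of all genes). None of the 6 was called with knockdown under vehicle (13.2% of all genes). Of 5 tested cholangiocyte markers, Spp1 was higher with BBR in Vec mice (means 30.6 and 61.1 CPM) and made up most of their sum, whereas Krt19, Krt7, Epcam and Sox9 did not pass, with means of 0.579 to 1.58 CPM. Among 5 adipocyte markers, Adipoq, Plin1, Lep and Retn reached at most 13 counts in a library and were not tested, and Cfd rose with BBR (log2 fold change 3.22 in Vec mice, edgeR adjusted p = 0.00428). Of 7 macrophage markers, 1 was higher and 2 were lower with BBR in Vec mice (7.58% and 7.88% of all genes), and 1 was lower with knockdown under vehicle (7.91%). Of 5 tested hepatocyte markers, 0 were higher and 1 was lower with BBR in Vec mice (7.58% and 7.88%). With knockdown under BBR no tested stellate, endothelial, pericentral, macrophage, hepatocyte or cholangiocyte marker was called (8.13% of all genes). Of the 6 periportal markers, Sds and Ass1 were higher in that comparison (3.31% of all genes). The part of these cell types and zones in the differences of Serpina7, Slc16a10 and Dio1 was not tested.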

How the data were processed

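Polyadenylated liver RNA from 20 mice was sequenced in 4 groups of 5, and groups and replicate numbers were taken from the sample labels. Per the file headers, the authors deposited 1 expected count and 1 FPKM value per gene and library, without pooling. The expected counts were not normalized, and 91.9% to 93.3% of values in a library were whole. The FPKM values deposited by the authors are normalized to length and depth, and were used here only to compare genes with each other. The submitters' processing notes name the build mm10, and the aligner, counting program, annotation and strand setting are not given in the sources used here.

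Expected counts were rounded. Genes were filtered with filterByExpr (minimum count 10, minimum total 15), which left 12342 genes, and libraries were scaled by TMM (factors 0.873 to 1.14). One edgeR 4.0.16 quasi-likelihood model in R 4.3.3, with a mean for each group and no other term, gave 5 comparisons with Benjamini-Hochberg adjustment over all genes tested and a threshold of 0.05. Likeness was the Pearson correlation of log2 CPM with a prior count of 2. The model was tested on simulated data. Alternatives were DESeq2 1.42.0, its size factors, 2 other filters, fits to 2 groups, a replicate block and leaving out each library. Of 40 pairs of libraries within groups, 0 held identical values. The edgeR p-values set each difference against a spread between livers within groups, estimated for each gene over all 4 groups and not from the 2 groups compared.

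The members and gene lists were chosen with earlier results of these data known. Genes were named by rule: the members, Pparg, up to 4 called genes per pathway list and comparison with partners and paralogs of members, the 3 genes most like each member, and the genes next to Serpina7 in its order. Nr1d1, Cfd and Pax8 were named after their values were seen. Other genes named from the lists of cell types, zones and lipogenesis are also outside that rule, some of them named for their calls. After group means were removed, libraries with the same replicate number correlated over 0.1 in at most 3 of 5 pairs between groups, and the numbers were not used to pair mice. Libraries with different numbers were not compared, so whether the numbers pair mice was not tested. Positions are from GENCODE M21, in which 22255 of 22298 identifiers were found, and promoter windows from RefSeq (5 of 7 members matched). Counting error is not the limit at these counts, and intervals were not needed. Some genes of these lists are counted but not reported here by name. Serpina7 was tested only with knockdown under BBR, the comparison of the groups that did not choose it, with a spread estimated over all 4 groups. It was left out of all counts of members called, although it had first been meant to be counted in the BBR comparisons.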

Additional observations from a re-analysis of the deposited data

Results flagged for a closer look

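Within groups of 5 livers, the gap between the highest or lowest library and its nearest neighbour was compared with the range of the group, which flags about 1 in 20 groups by chance. Of 28 combinations of member and group, 2 were past the critical value of 0.71, both in the shRNA group. Dio1 lay at 81.7 CPM in shRNA replicate 2, against 16.1 to 30.8 CPM in the other 4 livers, with a gap of 0.777 of the range. Thrsp lay at 1968 CPM in shRNA replicate 1, against 1519 to 1640 CPM in the other 4, with a gap of 0.730 of the range, and the same library had the highest summed level of lipogenic genes in its group (28816 CPM, against 7687 to 12868 CPM).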

How the results depend on the processing

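Across up to 26 alternative settings, 985 of 1032 log2 fold changes of the members and Pparg were kept. Of the others, 19 newly passed the threshold, 7 no longer passed it and 21 reversed. Kept means the same direction and the same side of the threshold. For the comparisons in which Serpina7 was not tested, it means the same direction and a shift under its pooled SD within groups. The number of genes called with BBR in Vec mice fell from 1908 to 1178 in a fit to the 2 groups compared, and the number for the difference of BBR effects rose from 18 to 338 in DESeq2. Besides Serpina7, DESeq2 called 2 members with knockdown under vehicle (Slc16a10, Ttr), the filter of 10 counts in every library called 1 (Slc16a10), and the fit to 2 groups called 1 with knockdown under BBR (Dio1). The log2 fold change of Thrsp with BBR in Vec mice was 0.00119 with the replicate block, and the Thrb to Thra difference with BBR in shRNA mice was 0.05683 when taken from counts. The cause was not tested.

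The replicate numbers did not pair the samples. With the replicate block 1747 genes were called with BBR in Vec mice, 1495 and 940 with knockdown under vehicle and BBR, 1819 with BBR in shRNA mice and 21 for the difference of BBR effects, and 2 members were called with BBR in Vec mice in place of 1, Thrb being added (edgeR adjusted p = 0.0394).

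With each library left out in turn, genes called ranged from 1237 to 2395 with BBR in Vec mice (lowest without Vec replicate 2, highest without Vec replicate 3), 1015 to 2284 and 538 to 1217 with knockdown under vehicle and BBR (lowest without shRNA replicate 4 and shRNA+BBR replicate 2, highest without Vec replicate 4 in both), 661 to 2527 with BBR in shRNA mice (without shRNA+BBR replicates 3 and 5) and 5 to 122 for the difference of BBR effects (without Vec+BBR replicate 4 and Vec replicate 4). Members called, Serpina7 not counted, ranged from 1 to 2 with BBR in Vec mice (Dio1 without Vec replicate 3 or shRNA replicate 2, Thrb without Vec replicate 4), 0 to 1 with BBR in shRNA mice (Dio1 without shRNA replicate 2), and 0 to 2 and 0 to 1 with knockdown under vehicle and BBR. Log2 fold changes that changed sign ranged from −0.0654 to 0.126 for Ttr with knockdown under BBR, from −0.915 to 0.0903 for the Dio1 difference of BBR effects, and for Thra from −0.102 to 0.0371 with BBR in Vec mice, −0.0551 to 0.0720 in shRNA mice and −0.0202 to 0.124 for their difference. They ranged from −0.0131 to 0.153 for Thrb with BBR in shRNA mice, and for Thrsp from −0.298 to 0.247 with BBR in Vec mice, −0.0529 to 0.161 in shRNA mice and −0.167 to 0.373 for their difference. The Thrb to Thra log2 difference ranged from 0.306 to 0.613 with BBR in Vec mice, 0.244 to 0.564 and −0.152 to 0.00476 with knockdown under vehicle and BBR, and −0.102 to 0.0965 with BBR in shRNA mice. It passed the test in the first 2 comparisons only without Vec replicate 4 (exact permutation test, adjusted p = 0.0317 in both).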
